A study of Homo sapiens with 12 samples.

Results

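The matrix metalloproteinases MMP1, MMP3, MMP9, MMP10, MMP13 and MMP14, the aggrecan-cleaving protease ADAMTS4 and their inhibitors TIMP1, TIMP2 and TIMP3 were followed in HaCaT cells, an immortalised human keratinocyte line. The 10 genes were chosen by symbol, from a list of proteases and inhibitors that break down or protect the extracellular matrix, out of 22545 genes in the deposited count table. RNA had been sequenced from 12 libraries in 4 groups of 3: cells given M5 and the antibiotic lefamulin, cells given M5 and the antibiotic retapamulin, cells given M5 alone, and cells given nothing. M5 is a common name for a cytokine mix that induces psoriasis-like features in keratinocytes, but the labels state neither its contents nor any dose, time or solvent. Both antibiotics are pleuromutilins, which share a tricyclic core and differ in the side chain. The labels do not call the replicates separate cultures, so p-values measure the spread between these libraries, which may be technical.

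Libraries held 35110519 to 37520999 counts. Levels are given as deposited FPKM (counts divided by gene length and library total), which allow different genes to be compared. Fold changes are log2 values from edgeR's quasi-likelihood test on the counts, with Benjamini-Hochberg adjustment over the 14207 genes that passed a filter on low counts. A gene is called where its adjusted p is under 0.05. The fit scales libraries by TMM, with factors from 0.915 in retapamulin libraries to 1.11 in untreated libraries, whereas FPKM rests on library totals alone. On library totals the median fold change of all genes was -0.14 for M5 against untreated, where TMM gave -0.02, and -0.31 for M5 plus retapamulin against untreated, where TMM gave -0.06. All 6 keratinocyte markers examined had counts in every group, although KRT14 averaged only 0.476, 0.411, 2.12 and 5.72 FPKM in lefamulin, retapamulin, M5 and untreated cells. Their summed level was 422.6 to 432.6 FPKM with lefamulin and 398.1 to 403.5 FPKM with retapamulin. It was 469.4 to 489.2 FPKM with M5 and 952.6 to 984 FPKM in untreated cells. Of this sum KRT5 averaged 199, 179.5, 288 and 800 FPKM in the order lefamulin, retapamulin, M5 and untreated. In that order CDH1 averaged 130.5, 124.6, 70.0 and 73.7 FPKM and DSG3 33.8, 34.4, 22.6 and 17.1 FPKM, both highest with the antibiotics. TP63 averaged 15.8, 11.3, 32.7 and 16.2 FPKM and ITGB4 47.3, 49.9, 61.5 and 51.9 FPKM, both highest with M5 alone. Of 8 fibroblast markers, DCN, LUM, COL3A1, COL1A2 and THY1 stood at or near 0 in every group, while COL1A1 averaged 2.62, 1.58, 1.04 and 1.37 FPKM, and the summed list ran from 2.53 to 2.80, 1.45 to 1.71, 0.952 to 1.16 and 1.31 to 1.47 FPKM in the order lefamulin, retapamulin, M5 and untreated. COL1A1 was called higher over M5 with lefamulin, by 1.38, and with retapamulin, by 0.74 (edgeR adjusted p = 2.83e-11 and 1.56e-06), and PDGFRA, which averaged at most 0.0285 FPKM in any group, was called higher with M5 than in untreated cells (edgeR adjusted p = 0.00823). The leukocyte marker PTPRC averaged at most 0.00283 FPKM. The summed leukocyte list, nearly all CD68, nonetheless ran from 22.7 to 24.5, 40.9 to 45.3, 17.6 to 18.6 and 7.80 to 8.99 FPKM in those 4 groups. In that list CD14 went the other way, at 0.140, 0.0385, 0.971 and 0.261 FPKM. It was called lower than M5 with lefamulin and with retapamulin (edgeR adjusted p = 6.59e-07 and 5.65e-09). The endothelial list, nearly all CDH5, ran from 27.8 to 28.8, 22.3 to 25.4, 28.3 to 29.9 and 3.81 to 4.41 FPKM. Its member VWF averaged 0.2595, 0.232, 0.00622 and 0.0593 FPKM, so it was lowest with M5 alone, unlike CDH5. The marker sums differ between the groups as several of the proteases do, and their part in the results below was not tested.

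Matrix metalloproteinases are zinc enzymes made as inactive zymogens, most of them secreted, that cut collagens, laminins, fibronectin and proteoglycans once their propeptide is removed. Tissue inhibitors of metalloproteinases (TIMPs) block them by binding the active site, so the balance of proteases to TIMPs bears on how much matrix is degraded. In skin, keratinocytes at a wound edge make MMP1 and MMP10 as they migrate, and MMP and TIMP genes respond to inflammatory cytokines, in part through AP-1 and ETS transcription factors.

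The stretch around the gene start, from 250 bases before it to 50 after, is shown for MMP10, which had the largest rise of the 10 genes with either antibiotic over M5, and for TIMP3, the inhibitor with the largest fall after M5. Both come from RefSeq (GRCh38.p14). The promoter set available here held an entry for 4 of the 10 genes, the others being MMP14 and TIMP1, which is a limit of that set. Capitals mark every match, on either strand, to any of 6 motifs searched: an AP-1 motif (TGANTCA), an ETS motif (AGGAAG), an NF-kB motif, a STAT motif (TTCNNNGAA), a TATA box (TATAAA) and a GC box (GGGCGG, read as CCGCCC on the other strand).
MMP10: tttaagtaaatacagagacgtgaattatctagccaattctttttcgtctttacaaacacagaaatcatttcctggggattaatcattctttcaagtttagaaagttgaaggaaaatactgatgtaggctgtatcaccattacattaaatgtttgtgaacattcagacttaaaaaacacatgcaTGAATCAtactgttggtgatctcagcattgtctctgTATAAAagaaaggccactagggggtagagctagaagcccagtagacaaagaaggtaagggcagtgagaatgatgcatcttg
TIMP3: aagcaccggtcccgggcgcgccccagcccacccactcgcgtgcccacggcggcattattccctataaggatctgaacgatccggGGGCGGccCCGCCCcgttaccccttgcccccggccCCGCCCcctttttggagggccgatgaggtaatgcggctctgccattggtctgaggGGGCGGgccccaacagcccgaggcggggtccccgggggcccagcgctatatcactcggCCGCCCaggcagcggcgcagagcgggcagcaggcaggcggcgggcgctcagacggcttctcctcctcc
The MMP10 window, chr11:102780579-102780878 on the minus strand, holds 1 AP-1 match, TGAATCA, which starts at position -67 from the gene start, and 1 TATA box at -31. Among 35116 human promoters of the same length, 7.7% hold the AP-1 motif and 11.5% the TATA box. The TIMP3 window, chr22:32801455-32801754 on the plus strand, holds 5 GC boxes and no match to the other motifs, and GC boxes occur in 45.0% of all promoters. MMP14 had 1 GC box, and TIMP1 had 2 GC boxes and 1 ETS match, a motif found in 33.6% of all promoters. A match is a run of letters and does not show that a factor binds there.

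**Figure D1:**
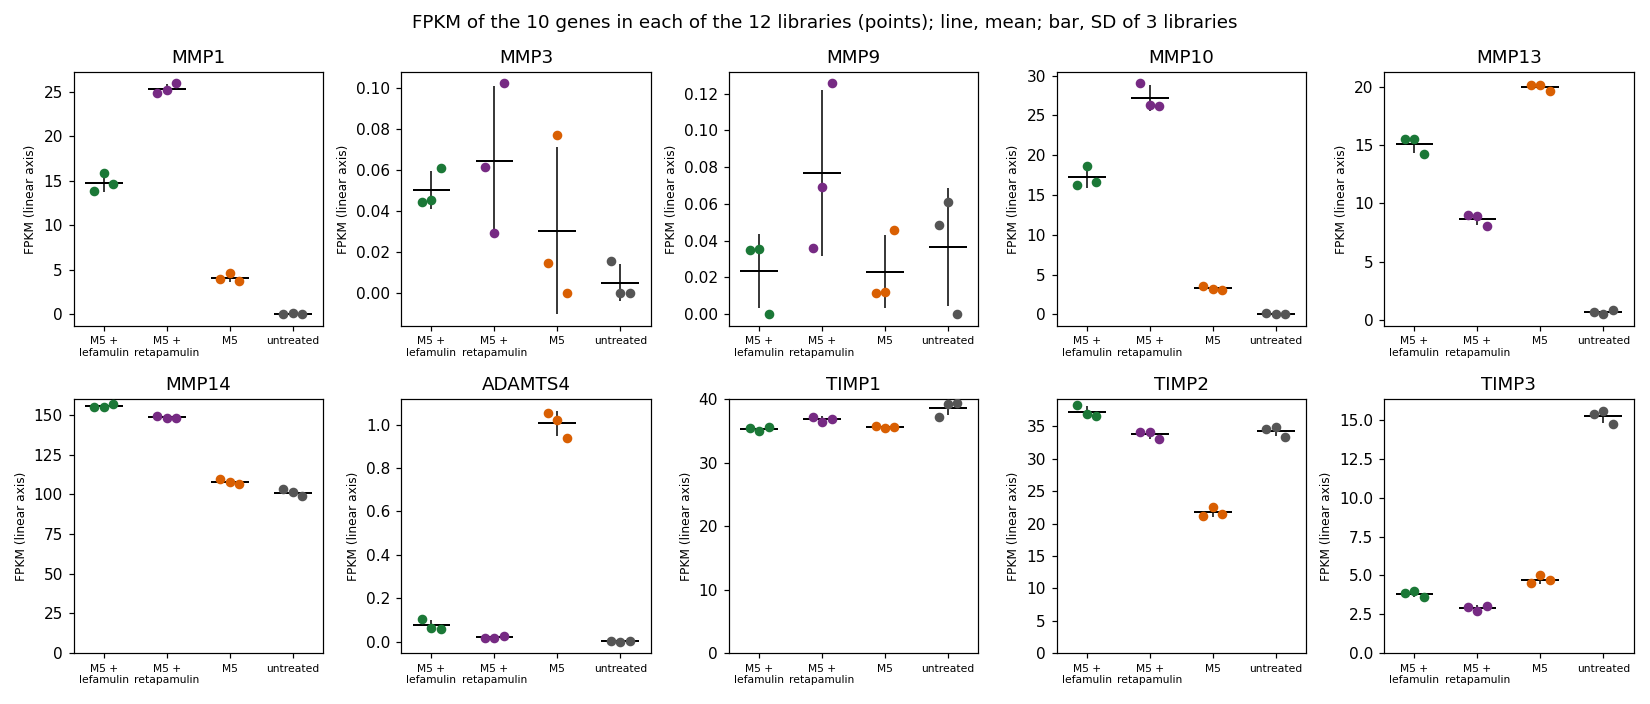
Level of each of the 10 genes in FPKM (vertical linear axes, scaled separately for each gene) in the 12 libraries, with points for libraries, a line for the mean and a bar for the SD of 3 libraries. MMP1 and MMP10 are highest with retapamulin, MMP13 and ADAMTS4 are highest with M5 alone, and TIMP3 is highest in untreated cells.

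In untreated cells, MMP14 and the 3 TIMPs were well above all other genes of the group. MMP14 averaged 101 ± 2.30 FPKM, TIMP1 38.7 ± 1.17, TIMP2 34.3 ± 0.796 and TIMP3 15.3 ± 0.462 FPKM (SD, n = 3 here and below). MMP13 followed at 0.650 ± 0.169 FPKM, and MMP10, MMP1, MMP9, MMP3 and ADAMTS4 averaged 0.101 FPKM or less, each overlapping its neighbour in that order. After M5 the order was MMP14, TIMP1, TIMP2, MMP13, TIMP3, MMP1, MMP10 and ADAMTS4, with TIMP3 and MMP1 overlapping, and MMP3 and MMP9 remained near 0. With either antibiotic added, MMP10 came right behind MMP14, TIMP1 and TIMP2, while ADAMTS4 was back among the lowest genes.

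M5 against untreated cells shows how a psoriasis-like cytokine stimulus moved these genes. MMP1, MMP10, MMP13, MMP14 and ADAMTS4 rose, TIMP2 and TIMP3 fell, and TIMP1 was not called. Of the 8 genes that passed the filter on low counts, 5 were called higher, against 28.3% of all genes tested, and 2 were called lower, against 26.9%. Their median log2 fold change was 2.63, beside -0.02 over all genes. MMP3 and MMP9 did not pass the filter. Since several of the 8 genes passed only through their level in treated cells, these shares describe the genes and give no support to a direction.

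The antibiotic groups ask what each compound does to cells that also receive M5. With lefamulin, MMP1, MMP10, MMP14 and TIMP2 were higher than with M5 alone and MMP13, ADAMTS4 and TIMP3 were lower. That is 4 called higher, against 33.6% of all genes, and 3 called lower, against 34.3%, with a median log2 fold change of 0.31 beside 0.00 over all genes. With retapamulin, MMP1, MMP10, MMP14, TIMP2 and TIMP1 were higher than with M5 alone, TIMP1 not on library totals, and MMP13, ADAMTS4 and TIMP3 were lower. That is 5 called higher, against 34.1% of all genes, and 3 called lower, against 38%. The median was 0.39, beside -0.05 over all genes. The numbers of lower calls lie near the background. Both comparisons use the same 3 M5 libraries, which also enter M5 against untreated.

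MMP1, the interstitial collagenase that cuts fibrillar collagens, had 13.8, 15.9 and 14.7 FPKM in M5 plus lefamulin libraries, 24.9, 25.2 and 26.0 FPKM in M5 plus retapamulin libraries, 3.99, 4.66 and 3.73 FPKM in M5 libraries and 0.0287, 0.130 and 0.0551 FPKM in untreated libraries. No group overlapped another, and the antibiotics took MMP1 further from its untreated level than M5 did. M5 raised MMP1 by 5.94 on the log2 scale over untreated cells (SE 0.39, edgeR adjusted p = 5.5e-18), against only 15 untreated counts in all, and the ratio of summed counts was 63.0 with a 95% counting interval from 37.99 to 113. Such intervals cover counting error only. Over M5 alone, lefamulin raised MMP1 by 1.89 (SE 0.08, edgeR adjusted p = 6.05e-16) and retapamulin by 2.76 (SE 0.08, edgeR adjusted p = 1.48e-19). In bulk RNA, a change in the share of cells that make a transcript and a change in its amount per cell cannot be told apart, here and for every gene below.

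MMP13, collagenase 3, which also cuts fibrillar collagens, went the other way under the antibiotics. It had 15.5, 15.6 and 14.2 FPKM in M5 plus lefamulin libraries, 8.98, 8.95 and 8.09 FPKM in M5 plus retapamulin libraries, 20.2, 20.2 and 19.7 FPKM in M5 libraries, and 0.647, 0.483 and 0.820 FPKM in untreated libraries. The 4 groups were again separate, with M5 alone highest. M5 raised MMP13 by 5.05 over untreated cells (SE 0.12, edgeR adjusted p = 1.42e-23). Relative to M5, the log2 change was -0.36 with lefamulin (SE 0.06, edgeR adjusted p = 1.37e-05) and -1.07 with retapamulin (SE 0.06, edgeR adjusted p = 1.55e-13). Both antibiotic groups stayed above untreated cells, by 4.70 with lefamulin and 3.98 with retapamulin (SE 0.12 each, edgeR adjusted p = 4.6e-23 and 2.81e-21).

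MMP10, stromelysin 2, which cuts laminin, fibronectin and proteoglycans and can activate other MMP zymogens, had 16.3, 18.7 and 16.7 FPKM in M5 plus lefamulin libraries, 29.0, 26.3 and 26.2 FPKM in M5 plus retapamulin libraries, 3.63, 3.14 and 3.02 FPKM in M5 libraries and 0.193, 0.0486 and 0.0617 FPKM in untreated libraries. Its groups stood in the same order as those of MMP1, with no overlap. After M5 it was 5.11 above untreated cells on the log2 scale (SE 0.36, edgeR adjusted p = 4.48e-16), and the count ratio against 19 untreated counts was 35.2, with a 95% counting interval from 22.3 to 58.8. Lefamulin added 2.44 to the M5 level (SE 0.09, edgeR adjusted p = 2.32e-17) and retapamulin 3.19 (SE 0.09, edgeR adjusted p = 5.13e-20).

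MMP3, stromelysin 1, a close relative of MMP10, was barely detected, with 3, 3 and 4 counts in M5 plus lefamulin libraries, 4, 2 and 7 in M5 plus retapamulin libraries, 1, 5 and 0 in M5 libraries and 1, 0 and 0 in untreated libraries. The antibiotic libraries all lay above the untreated ones, and the M5 libraries overlapped every other group. When all genes with a count were tested with no filter, MMP3 was called only against untreated cells, with edgeR adjusted p = 0.0398 for lefamulin and 0.0114 for retapamulin, and these calls rest on 1 untreated count. The count ratios were 11.03 (95% counting interval 1.57 to 479) with lefamulin and 15.1 (2.27 to 641) with retapamulin. MMP9, gelatinase B, which cuts denatured collagen and collagen IV, had 3, 3 and 0 counts in M5 plus lefamulin libraries, 3, 6 and 11 in M5 plus retapamulin libraries, 1, 1 and 4 in M5 libraries and 4, 5 and 0 in untreated libraries. Apart from the pair of antibiotic groups, which touch at 3 counts, all groups overlapped, and with no filter edgeR called MMP9 in none of the 6 comparisons, with 2 at an unadjusted p under 0.05, from 0.0389 for retapamulin against M5 (adjusted p = 0.0800). The count ratio of retapamulin to M5 for MMP9 was 3.65, with a 95% counting interval from 1.42 to 11.1.

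MMP14 is anchored in the cell membrane, cuts collagen at the cell surface and, with TIMP2 as a bridge, activates the MMP2 zymogen. It had the highest FPKM of the 10 genes in every library, with 154.9, 155 and 157 FPKM after M5 plus lefamulin, 149, 148 and 148.5 FPKM after M5 plus retapamulin, 109.9, 108 and 106 FPKM after M5, and 103, 102 and 98.8 FPKM in untreated cells. M5 libraries were all above untreated libraries, and both antibiotic groups lay well above M5. The rise after M5 was 0.21 (SE 0.03, edgeR adjusted p = 5.27e-07), and 0.09 on library totals (edgeR adjusted p = 0.00402). Over M5 alone, MMP14 rose by 0.57 with lefamulin (SE 0.03, edgeR adjusted p = 3.17e-15) and by 0.60 with retapamulin (SE 0.03, edgeR adjusted p = 1.09e-15).

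ADAMTS4, aggrecanase 1, cleaves the proteoglycans aggrecan, versican and brevican. Its counts were 38, 22 and 20 in M5 plus lefamulin libraries, 6, 6 and 9 in M5 plus retapamulin libraries, 382, 356 and 343 in M5 libraries, and 1, 0 and 1 in untreated libraries. M5 libraries stood far above all others, and the groups did not overlap. The ratio of summed counts of M5 to untreated cells was 573, with a wide 95% counting interval from 158 to 4734 because it rests on 2 untreated counts (edgeR adjusted p = 3.39e-16). Relative to M5, ADAMTS4 fell by 3.69 on the log2 scale with lefamulin (SE 0.23, edgeR adjusted p = 2.36e-13) and fell by 5.53 with retapamulin (SE 0.34, edgeR adjusted p = 2.97e-15). Its level was low even after M5, at 1.01 ± 0.0588 FPKM, and the gene length behind the deposited FPKM was long, 9777 bases, against 1759 to 4597 bases for the other 9 genes.

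The 3 inhibitors did not move together. TIMP3, which is held in the matrix and also inhibits ADAM17 and the aggrecanases, had 3.87, 4.0 and 3.60 FPKM in M5 plus lefamulin libraries, 2.97, 2.72 and 3.05 FPKM in M5 plus retapamulin libraries, 4.50, 5.01 and 4.69 FPKM in M5 libraries, and 15.4, 15.6 and 14.7 FPKM in untreated libraries. Untreated libraries were by far the highest, and each antibiotic group was below M5 with no overlap. TIMP3 fell by 1.57 after M5 (SE 0.05, edgeR adjusted p = 7.78e-18), and relative to M5 it fell by 0.26 with lefamulin (SE 0.06, edgeR adjusted p = 0.000493) and fell by 0.56 with retapamulin (SE 0.06, edgeR adjusted p = 1.41e-08).

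TIMP2, the inhibitor that MMP14 uses to bind the MMP2 zymogen, had 38.4, 36.9 and 36.7 FPKM in M5 plus lefamulin libraries, 34.2, 34.2 and 33.0 FPKM in M5 plus retapamulin libraries, 21.2, 22.6 and 21.5 FPKM in M5 libraries and 34.5, 34.9 and 33.4 FPKM in untreated libraries. M5 libraries were the lowest, lefamulin libraries the highest, and retapamulin and untreated libraries overlapped on this scale. TIMP2 fell by 0.54 after M5 (SE 0.04, edgeR adjusted p = 4.57e-12). Over M5 alone it rose by 0.82 with lefamulin (SE 0.04, edgeR adjusted p = 5.56e-16) and by 0.77 with retapamulin (SE 0.04, edgeR adjusted p = 1.59e-15). Against untreated cells, TIMP2 was higher by 0.29 with lefamulin (SE 0.04, edgeR adjusted p = 9.17e-08) and by 0.23 with retapamulin (SE 0.04, edgeR adjusted p = 2.22e-06), but on library totals the retapamulin difference was -0.02 and was not called (edgeR adjusted p = 0.583).

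TIMP1, a secreted inhibitor of most soluble MMPs and a weak one of MMP14, varied least. It had 35.5, 35.1 and 35.6 FPKM in M5 plus lefamulin libraries, 37.3, 36.4 and 36.9 FPKM in M5 plus retapamulin libraries, 35.8, 35.6 and 35.6 FPKM in M5 libraries, and 37.3, 39.2 and 39.4 FPKM in untreated libraries. Untreated libraries were highest on this scale, level at the lower end with the highest retapamulin library. With TMM the difference of M5 from untreated cells was 0.00 (95% interval -0.08 to 0.08, edgeR adjusted p = 0.973), and on library totals it was -0.12 and was called (edgeR adjusted p = 0.00901). The difference of M5 plus lefamulin from M5 was 0.04 (95% interval -0.04 to 0.12, edgeR adjusted p = 0.424), and -0.01 on library totals. For M5 plus retapamulin against M5, TMM gave 0.18 (SE 0.04, edgeR adjusted p = 0.000178) and library totals 0.05, not called (edgeR adjusted p = 0.243).

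**Figure D2:**
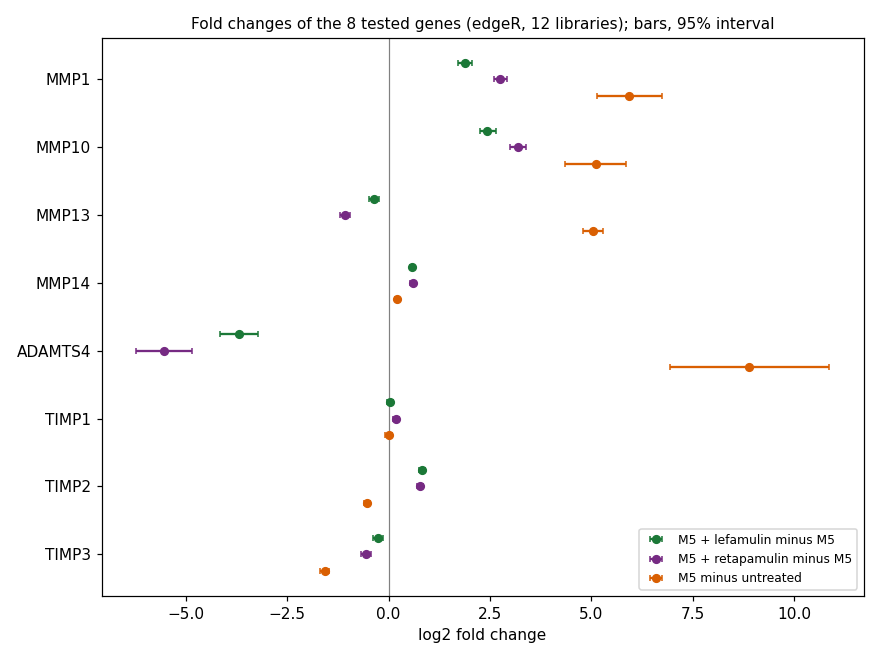
Log2 fold changes (horizontal axis) of the 8 tested genes for M5 plus lefamulin minus M5, M5 plus retapamulin minus M5, and M5 minus untreated, with bars for 95% intervals. MMP1, MMP10 and MMP14 lie to the right of 0 in all 3 comparisons. MMP13 and ADAMTS4 lie right for M5 and left for both antibiotics, and TIMP2 does the reverse. TIMP1 lies near 0, and its sign depends on the scaling for M5 minus untreated and for lefamulin minus M5. For retapamulin minus M5 it stays right of 0 but is not called on library totals. The ADAMTS4 value for M5 minus untreated depends on the prior count of the fit.

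Cells given M5 and an antibiotic were also set against untreated cells. With lefamulin, 6 of the 8 tested genes were called higher, against 36.9% of all genes, and 1 lower, against 37.1%. With retapamulin, 7 were called higher, against 37.6%, and 1 lower, against 40.9%, with TIMP1 and TIMP2 no longer called on library totals (edgeR adjusted p = 0.0904 and 0.583). MMP1 stood 7.83 above untreated cells with lefamulin and 8.70 with retapamulin (SE 0.39 each, edgeR adjusted p = 9.13e-23 and 2.43e-24), while TIMP3 fell by 1.83 with lefamulin and fell by 2.13 with retapamulin (SE 0.06 each, edgeR adjusted p = 2.17e-19 and 1.36e-20). ADAMTS4 did not come down to the untreated level, with count ratios of 44.1 (95% counting interval 11.8 to 370.6) for lefamulin and 12.2 (2.98 to 107) for retapamulin, both against 2 untreated counts. These comparisons share the untreated libraries with M5 against untreated. Here too, several of the 8 genes passed the filter only through their level in treated cells. The shares called higher and lower therefore describe the genes and give no support to a direction.

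The balance between proteases and inhibitors was described within each library by dividing the summed FPKM of the 7 proteases by that of the 3 TIMPs. The ratio averaged 2.65 ± 0.0631 with M5 plus lefamulin, 2.86 ± 0.00875 with M5 plus retapamulin, 2.20 ± 0.0525 with M5 and 1.16 ± 0.0320 in untreated cells. The libraries of the 4 groups did not overlap, but MMP14 held most of the protease sum, at 76.7%, 70.8%, 79.2% and 99.2% in the same order. Without MMP14 the ratio was 0.618 ± 0.0382, 0.834 ± 0.00994, 0.458 ± 0.0132 and 0.00984 ± 0.00155, so among the soluble proteases the order of the groups was the same. The TIMP sum was 76.5 ± 1.04 FPKM with lefamulin, 73.6 ± 0.790 with retapamulin, 62.2 ± 0.878 with M5 and 88.2 ± 1.37 in untreated cells. No test was made of these ratios, and they concern RNA, not enzyme activity.

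The make-up of the summed RNA of the collagenases MMP1 and MMP13 differed between the groups as well. MMP1 held 49.5 ± 2.05% of the summed FPKM of MMP1 and MMP13 with M5 plus lefamulin, 74.5 ± 1.51% with M5 plus retapamulin and 17.1 ± 1.48% with M5. In untreated cells the share ran from 4.25% to 21.2% on a few counts. Of this pair, MMP13 RNA was thus the more abundant per length with M5 alone and MMP1 RNA with retapamulin, and they were about equal with lefamulin. MMP14, which also cuts collagen, is not part of this share.

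**Figure D3:**
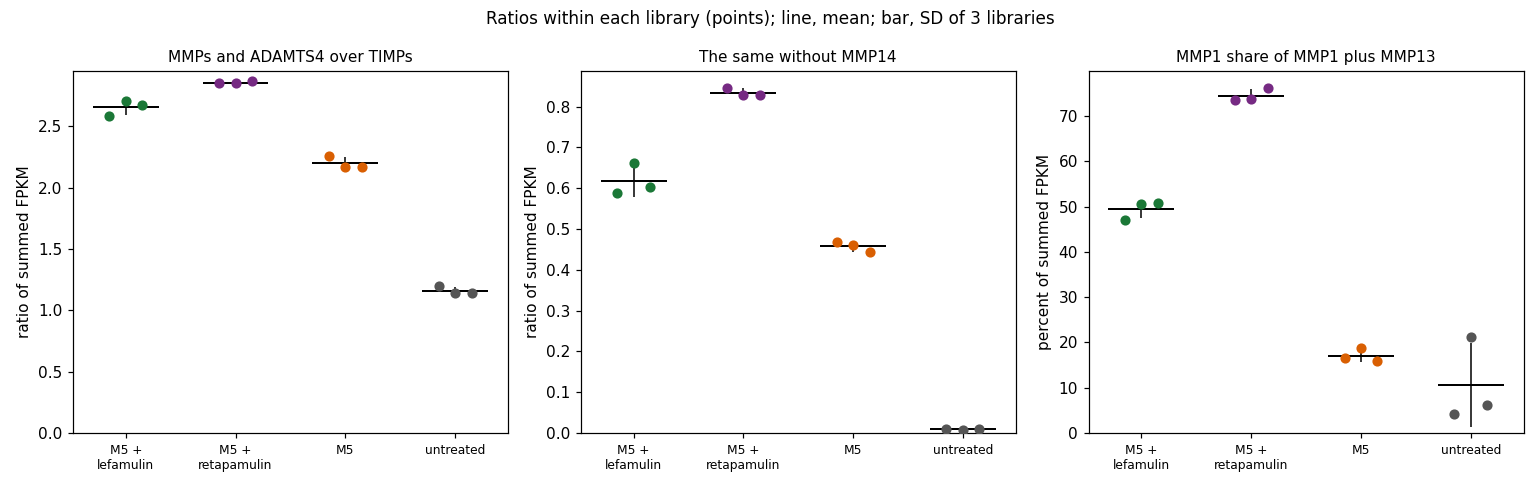
Ratio of summed FPKM of the MMPs and ADAMTS4 to summed FPKM of the TIMPs (left), the same without MMP14 (middle) and MMP1 as a percent of MMP1 plus MMP13 (right), with points for libraries, a line for the mean and a bar for the SD of 3 libraries. In each panel retapamulin is highest, lefamulin next and M5 below both, at means of 74.5%, 49.5% and 17.1% for the share of MMP1.

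Lefamulin and retapamulin form the only pair of related compounds in the study. Since the labels give no doses or times, it is not known whether they were matched, and the differences below are those of the labelled groups. Between M5 plus lefamulin and M5 plus retapamulin, 3 of the 8 genes were called higher with lefamulin, against 18.8% of all genes, and 3 lower, against 21.2%. MMP1 was lower with lefamulin by -0.87 (95% interval -1.01 to -0.72, edgeR adjusted p = 1.2e-09) and MMP10 by -0.75 (interval -0.90 to -0.59, edgeR adjusted p = 2.98e-08). MMP13 was higher by 0.71 (interval 0.58 to 0.85, edgeR adjusted p = 6.08e-09), ADAMTS4 by 1.84 (interval 1.08 to 2.59, edgeR adjusted p = 0.00013) and TIMP3 by 0.30 (interval 0.17 to 0.43, edgeR adjusted p = 0.000509). For each of these 5 genes, the retapamulin level lay farther from the M5 level, in the direction that lefamulin also took.

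MMP14 and TIMP2 were not called between the compounds. Their differences were -0.02 (95% interval -0.08 to 0.03, edgeR adjusted p = 0.561) for MMP14 and 0.05 (interval -0.02 to 0.13, edgeR adjusted p = 0.237) for TIMP2. On library totals both were called higher with lefamulin, MMP14 by 0.07 (edgeR adjusted p = 0.0408) and TIMP2 by 0.14 (edgeR adjusted p = 0.00244). TIMP1 was lower with lefamulin by -0.15 (interval -0.23 to -0.07, edgeR adjusted p = 0.00398), and was not called on library totals, at -0.06 (edgeR adjusted p = 0.208).

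**Figure D4:**
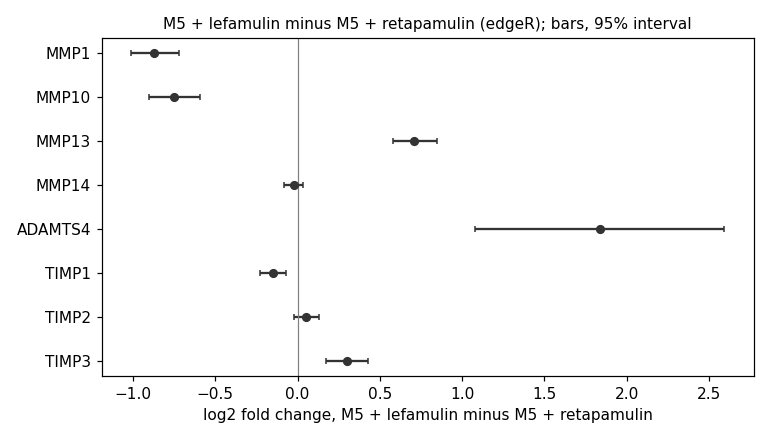
Log2 difference of M5 plus lefamulin minus M5 plus retapamulin (horizontal axis) for the 8 tested genes, with bars for 95% intervals. MMP1 at -0.87 and MMP10 at -0.75 lie left of 0, MMP13 at 0.71 and ADAMTS4 at 1.84 lie right of it, and the intervals of MMP14 and TIMP2 include 0; the sign of MMP14 and the calls of MMP14, TIMP1 and TIMP2 change on library totals.

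In the RefSeq annotation, MMP1, MMP3, MMP10 and MMP13 belong to a run of 9 protein-coding MMP genes on chromosome 11, in the order MMP7, MMP20, MMP27, MMP8, MMP10, MMP1, MMP3, MMP12 and MMP13, between TMEM123 and DCUN1D5. Of the 9, 8 are in the count table. MMP10 and MMP1, side by side, averaged 17.2 and 14.8 FPKM with lefamulin, 27.2 and 25.4 with retapamulin, 3.26 and 4.13 with M5 and 0.101 and 0.0713 in untreated cells. MMP3, the next gene, averaged 0.0504, 0.0645, 0.0306 and 0.00518 FPKM with lefamulin, retapamulin, M5 and no treatment. MMP8 had 1 count in all 12 libraries and MMP12 between 4 and 13 counts per group. MMP7 and MMP13, at the ends of the run, were both highest with M5 alone, while MMP10 and MMP1, side by side in its middle, were both highest with retapamulin. Of the flanking genes, TMEM123 stood at 97.1, 81.0, 103 and 93.9 FPKM and DCUN1D5 at 7.73, 8.03, 9.08 and 8.79 FPKM in the same order of groups. MMP1 and MMP3 overlap the pseudogene WTAPP1, not analysed here, so reads shared with it could not be examined.

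Among 17 other MMP genes listed, 15 were in the table and 9 were tested. M5 raised 2 and lowered 3 of the 9 relative to untreated cells, against 28.3% and 26.9% of all genes. Relative to M5 each antibiotic raised 2 and lowered 4, against 33.6% and 34.3% of all genes with lefamulin and 34.1% and 38% with retapamulin, so these counts lie near the background. MMP7, matrilysin, an epithelial protease with broad substrates, averaged 53.1 ± 1.10 CPM with M5 plus lefamulin, 39.1 ± 3.37 with M5 plus retapamulin, 85.7 ± 2.36 with M5 and 7.998 ± 1.72 in untreated cells (CPM, here on TMM-scaled library sizes). Its log2 change was 3.42 after M5 (SE 0.09), -0.69 with lefamulin over M5 (SE 0.07) and -1.13 with retapamulin over M5 (SE 0.07), with edgeR adjusted p of 5.01e-21, 2.57e-09 and 3.34e-13. MMP2, the gelatinase activated by MMP14, fell by 0.47 after M5 (SE 0.11, edgeR adjusted p = 0.00103). Relative to M5, MMP2 fell by 0.37 with lefamulin and by 0.35 with retapamulin (SE 0.12 each, edgeR adjusted p = 0.00822 and 0.0111). After M5, MMP15, another membrane MMP, rose by 0.93 (SE 0.10, edgeR adjusted p = 3.15e-08), and MMP28 fell by 0.78 (SE 0.18, edgeR adjusted p = 0.000891).

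Of 18 other ADAMTS genes listed, 14 were in the table and 5 were tested. M5 raised 1 and lowered 4 of the 5 relative to untreated cells, against 28.3% and 26.9% of all genes. ADAMTS1, an aggrecan- and versican-cleaving protease, fell by 2.07 after M5 (SE 0.19, edgeR adjusted p = 1.62e-09) and ADAMTS6 fell by 2.11 (SE 0.16, edgeR adjusted p = 4.78e-11). ADAMTS9 was the 1 that rose. Over M5 alone it rose by 2.74 with lefamulin (SE 0.23, edgeR adjusted p = 9.89e-11) and by 2.89 with retapamulin (SE 0.23, edgeR adjusted p = 2.77e-11). ADAMTS1 fell there, as ADAMTS4 did, by 1.47 with lefamulin and by 0.73 with retapamulin (edgeR adjusted p = 6.99e-06 and 0.0051). ADAMTS6 rose by 1.01 and by 2.03 (edgeR adjusted p = 1.13e-05 and 4.57e-11). Relative to M5, lefamulin raised 2 and lowered 2 of the 5, against 33.6% and 34.3% of all genes. Retapamulin raised 2 and lowered 1, against 34.1% and 38%.

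The ADAM sheddases release cytokines, growth factors and receptors from the cell surface, and ADAM17 is a target of TIMP3. After M5, 6 of 7 tested were higher and 1 lower than in untreated cells, against 28.3% and 26.9% of all genes, and 5 were higher on library totals, where ADAM10 was not called. ADAM28 rose by 2.60 (SE 0.13, edgeR adjusted p = 7.91e-15) and ADAM8 by 1.64 (SE 0.03, edgeR adjusted p = 1.27e-22), while ADAM19 fell by 0.58 (SE 0.10, edgeR adjusted p = 2.39e-05). Over M5 alone, lefamulin raised 5 and lowered 2, against 33.6% and 34.3% of all genes, and retapamulin raised 4 and lowered 2, against 34.1% and 38%. ADAM28 fell by 2.64 with lefamulin (SE 0.13) and fell by 3.10 with retapamulin (SE 0.14), and ADAM8 rose by 1.00 with each (SE 0.03), with edgeR adjusted p of 4.59e-15, 3.56e-16, 7.19e-19 and 5.09e-19.

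Proteases that turn MMP zymogens into active enzymes were counted next. The plasminogen activators PLAU (urokinase) and PLAT (tissue type) yield plasmin, which cuts MMP propeptides, and furin cuts the propeptide of MMP14. All 7 tested rose after M5, or 6 of 7 on library totals, against 28.3% of all genes. Relative to M5, 3 were higher and 3 lower with lefamulin, against 33.6% and 34.3% of all genes, and 3 higher and 4 lower with retapamulin, against 34.1% and 38%, so these counts lie near the background. PLAU averaged 748 ± 4.23 CPM with M5 plus lefamulin, 1342 ± 25.5 with M5 plus retapamulin, 175 ± 0.547 with M5 and 116 ± 4.13 in untreated cells. PLAT averaged 301.5 ± 8.01, 217 ± 4.12, 791 ± 23.0 and 54.8 ± 1.24 CPM in the same order. PLAU was thus highest with retapamulin, as MMP1 and MMP10 were, and PLAT was highest with M5 alone, as MMP13 and ADAMTS4 were. Over M5 alone, PLAU rose by 2.10 with lefamulin and 2.94 with retapamulin (SE 0.03 each, edgeR adjusted p = 1.64e-25 and 3.26e-28), while PLAT fell by 1.39 with lefamulin and fell by 1.87 with retapamulin (SE 0.03 each, edgeR adjusted p = 1.39e-21 and 4.31e-24).

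Of the inhibitor RECK, which anchors to the membrane, and BSG, the surface protein that induces MMPs in neighbouring cells, neither was called between an antibiotic and M5 with TMM. On library totals both were called lower with retapamulin than with M5, BSG at -0.19 and RECK at -0.44 (edgeR adjusted p = 2.03e-05 and 0.0499). RECK fell by 0.48 after M5 (SE 0.19, edgeR adjusted p = 0.0340). BSG rose by 0.15 after M5 (SE 0.03, edgeR adjusted p = 0.000706), and by 0.03 with no call on library totals (edgeR adjusted p = 0.417).

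Among 10 tested genes for matrix proteins that these enzymes cut, 5 rose and 2 fell after M5, against 28.3% and 26.9% of all genes, or 4 and 3 on library totals. Lefamulin raised 6 and lowered 3 relative to M5, against 33.6% and 34.3% of all genes, and retapamulin raised 5 and lowered 2, against 34.1% and 38%, or 5 and 4 on library totals. LAMB3, a laminin chain, rose by 1.33 after M5 (SE 0.03, edgeR adjusted p = 8.79e-22). Over M5 alone it rose by 1.19 with lefamulin and by 1.74 with retapamulin (SE 0.03 each, edgeR adjusted p = 5.32e-21 and 2.71e-24). COL4A1, a chain of basement membrane collagen, fell by 0.76 with lefamulin and fell by 1.28 with retapamulin relative to M5 (SE 0.04 and 0.05, edgeR adjusted p = 1.28e-13 and 5.07e-18).

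AP-1 and ETS transcription factors are known to drive MMP promoters. Of 11 tested, 10 rose after M5 and none fell, against 28.3% and 26.9% of all genes. Relative to M5 each antibiotic raised 9 and lowered 2, against 33.6% and 34.3% of all genes with lefamulin and 34.1% and 38% with retapamulin. FOSL1, a subunit of AP-1, averaged 415 ± 8.46 CPM with M5 plus lefamulin, 669 ± 30.6 with M5 plus retapamulin, 102 ± 2.48 with M5 and 58.0 ± 1.68 in untreated cells. Its log2 change over M5 was 2.02 with lefamulin and 2.71 with retapamulin (SE 0.04 each, edgeR adjusted p = 1.11e-23 and 3.22e-26). FOSB rose by 3.18 with lefamulin and 3.28 with retapamulin (SE 0.12 each, edgeR adjusted p = 1.01e-17 and 3.63e-18). Relative to M5, FOSL2 fell by 0.81 with lefamulin and fell by 0.75 with retapamulin (SE 0.04 each, edgeR adjusted p = 2.33e-15 and 6.92e-15). ETS2 fell by 0.67 with lefamulin and fell by 0.75 with retapamulin (SE 0.05 each, edgeR adjusted p = 3.26e-12 and 3.33e-13). Between the compounds 6 of the 11 were lower with lefamulin, against 21.2% of all genes, and none was higher, against 18.8%, or 1 on library totals. No factor was altered in these cells, so the data hold no test of its part in the MMP changes.

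**Figure D5:**
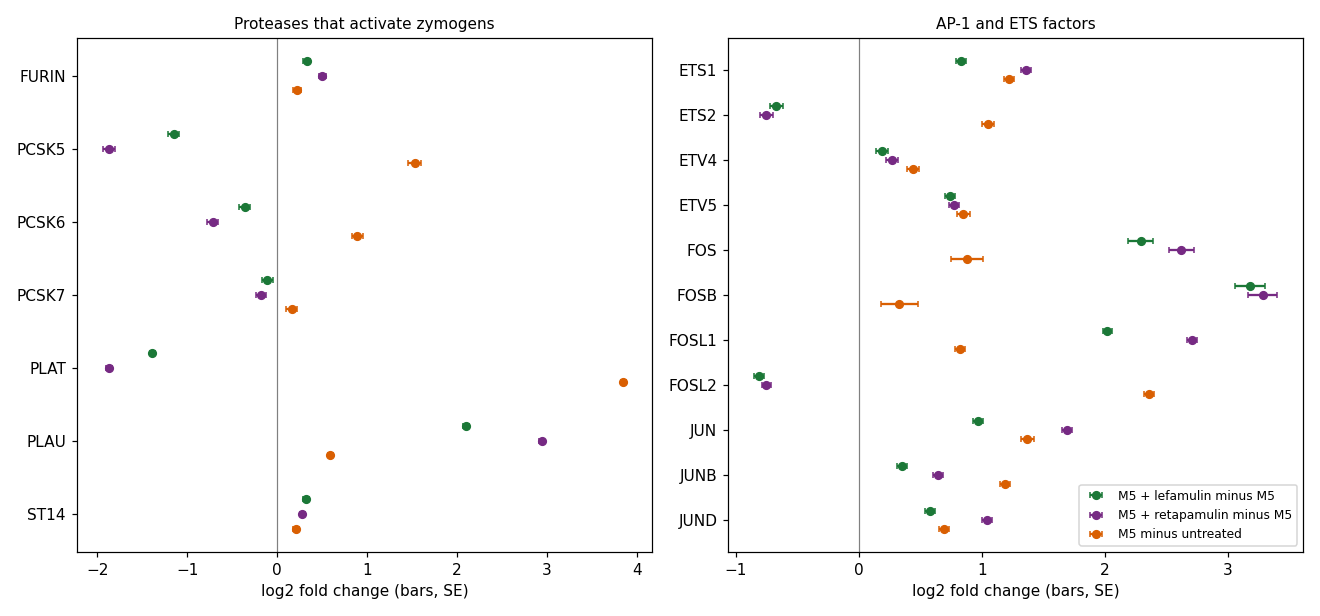
Log2 fold changes (horizontal axes) of the proteases that activate zymogens (left) and of the AP-1 and ETS factors (right) for M5 plus lefamulin minus M5, M5 plus retapamulin minus M5 and M5 minus untreated, with bars for the SE. PLAU and PLAT lie on opposite sides of 0 under the antibiotics, and of the 11 factors FOSL2 and ETS2 alone lie left of 0 there; PCSK7 after M5 is not called on library totals.

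For each tested gene, the 2 genes with the nearest pattern were found among 10667 genes, as the smallest root mean square difference of centred log2 CPM over the 12 libraries. MMP1 was nearest to CCL3, a chemokine (0.58), and then to MMP10 (0.66), and MMP10 was likewise nearest to CCL3 (0.63). MMP13 was nearest to TNFSF14, a cytokine of the TNF family (0.21), and SOD2, the mitochondrial superoxide dismutase (0.26). ADAMTS4 was nearest to CCL2, a monocyte-attracting chemokine (0.40), and SAA2, an acute phase protein (0.65). MMP14 was nearest to HMGXB3 and to GRN, which encodes progranulin (0.03 each). TIMP3 was nearest to PHLDB1 (0.11) and TPM1, a tropomyosin (0.12). TIMP2 was nearest to FXYD3 and NXPE3 (0.07 each), and TIMP1 to EEF1G and RAB25 (0.03 each). The distances are on the log2 scale, so that they are larger for genes near 0 counts in a group, such as MMP1, MMP10, CCL3 and ADAMTS4. They are also small between genes that change little across the groups, such as TIMP1 and its neighbours. Distances of different members therefore do not rank how close their neighbours are.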

How the data were processed

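RNA-seq of 12 HaCaT libraries was available as 2 tables. Per the file headers and the submitters' processing notes, the authors deposited raw counts per gene symbol, made with HISAT2 and HTSeq, and FPKM for the same genes; versions, genome build and strand setting were not given in the sources used here. Extraction text in the labels describes mouse epidermis and was not used. For 20422 genes the deposited FPKM equalled the count over a fixed length and the library total (largest coefficient of variation 3.92e-07). All libraries carry 1 batch label.

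The analysis of counts used edgeR 4.0.16 (R 4.3.3): filterByExpr (minimum count 10; 14207 genes tested, 8338 not), TMM, and the quasi-likelihood test on 4 groups, with Benjamini-Hochberg adjustment over all genes tested. The script was tested on simulated data. All 10 members are named. From each other list, up to 2 called genes with the largest rise and fall in each comparison are named. They were taken at a group mean of at least 5 CPM with no overlap of libraries. The 2 nearest patterns per member are also named. RECK, ADAMTS9 after M5, FOSL1 with lefamulin and the genes beside or overlapping members lie outside these rules. So do, over M5, ADAMTS1 with either antibiotic, ADAMTS6 with lefamulin and MMP2 with retapamulin. All of these were chosen after their values were seen. Members and lists were chosen with earlier results of these data known. Replicate libraries differed by more than sampling noise. Alternatives were RLE size factors, library totals, no filter, DESeq2 1.42.0, fits of 2 groups, a replicate block, limma 3.58.1 on log2(FPKM + 1) and log2(FPKM + 0.1), a 2-fold minimum, and leaving out each library.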

Additional observations from a re-analysis of the deposited data

How the results depend on the processing

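Of the fold changes of the 8 tested genes, 927 of the alternative values kept their direction and side of the threshold, 9 lost a call, 3 gained one and 20 changed sign. With RLE size factors, DESeq2 or the replicate block, all counts of members called stayed the same, for example 5 higher and 2 lower in M5 against untreated with the replicate block. Same-numbered libraries of different groups had correlations of their deviations from -0.144 to 0.184, and differently numbered ones from -0.271 to 0.26. These deviations show no pairing by number, and whether same-numbered libraries were handled together is not known.

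Library totals and FPKM, which share a scale, moved the balance of higher and lower calls. M5 against untreated called 2677 genes higher and 5820 lower on library totals, 2574 and 5771 by limma on log2(FPKM + 1), and 2619 higher on log2(FPKM + 0.1), against 4022 and 3817 with TMM. M5 plus lefamulin against M5 plus retapamulin called 4434 higher and 1663 lower, 4171 and 1593, and 4289 and 1539 under these settings, and 5 members higher on library totals and on log2(FPKM + 0.1). Of the calls, 31.5% were higher in M5 against untreated on library totals (51.3% with TMM) and 72.7% in lefamulin against retapamulin (47.0%). Members called lower against untreated numbered 2 with lefamulin under all 3 settings and 2 with retapamulin on FPKM, where 4 were higher.

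The sign changes were as follows on library totals, log2(FPKM + 1) and log2(FPKM + 0.1). TIMP1 went to -0.12, -0.11 and -0.12 in M5 against untreated, to -0.01 in all 3 in lefamulin against M5, to -0.13, -0.12 and -0.13 in lefamulin against untreated, and to -0.07 in all 3 in retapamulin against untreated. TIMP2 went to -0.02 in retapamulin against untreated, and MMP14 to 0.07 in lefamulin against retapamulin. TIMP1 in M5 against untreated was -0.03 without untreated replicate 1 and 0.00 without M5 replicate 3. On FPKM, ADAMTS4 lost its call in retapamulin against untreated (0.03 and 0.23) and, with a pseudocount of 1, in lefamulin against retapamulin (0.08); the cause was not tested beyond its FPKM lying below the pseudocount.

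With a minimum of 2-fold, 720 genes were higher and 785 lower in M5 against untreated, 1291 and 697 in lefamulin against M5, 1393 and 1231 in retapamulin against M5, 357 and 105 in lefamulin against retapamulin, 1759 and 1355 in lefamulin against untreated, and 1895 and 2051 in retapamulin against untreated. Of the 8 tested members, 4 were then higher and 1 lower in M5 against untreated, against 5.07% and 5.53% of all genes. In lefamulin against M5, 2 were higher and 1 lower (9.09% and 4.91%). In retapamulin against M5, 2 were higher and 2 lower (9.81% and 8.66%). In lefamulin against retapamulin, 1 was higher and 0 lower (2.51% and 0.739%). Against untreated, 4 were higher and 1 lower with lefamulin (12.4% and 9.54%) and likewise with retapamulin (13.3% and 14.4%). These shares describe the genes and give no support to a direction. The protease to TIMP ratio without MMP14, a choice made after seeing the data, was 0.618, 0.834, 0.458 and 0.00984 in lefamulin, retapamulin, M5 and untreated cells. Counts of 20 or fewer per group limit what can be said of MMP3, MMP9 and the untreated levels of MMP1, MMP10 and ADAMTS4, and nothing here shows whether replicates are separate cultures.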
